A study of Homo sapiens with 16 samples.

Results

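The genes described here are 9 heat shock genes whose products fold proteins in the cytosol and in mitochondria: HSPA8, HSPA1A, HSPH1, DNAJB1, BAG3, HSP90AA1, HSPB1, HSPD1 and HSPE1. They were taken as a list of names, chosen with earlier results of these data known. All 9 were found among the 22892 uniquely named genes of one expression table and the 25606 of a second. The question asked of them was whether treatment with doxycycline (DOX), which switches on an XIST transgene in these cells, moved the chaperone genes, and whether clones at the same treatment differed in them.

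The cells were HT1080, a human fibrosarcoma line, expressing a Tet repressor and carrying 1 copy of an inducible full-length XIST cDNA at a site on 8p, 1p or 12q. The HiSeq table holds 6 RNA libraries, 1 of the 8p clone with No DOX, 2 of the 8p clone after 5 days of DOX, and 1 library each, after 5 days of DOX, of a 1p XIST clone, a 12q XIST clone and a 1p clone with an empty vector in place of XIST. The NextSeq table holds 4 libraries, 1 each of the 1p and 12q XIST clones with No DOX and after 5 days of DOX. Each group stands for a clone, and the 12q line came from another Tet repressor subclone than the 1p and 8p lines. The 8p DOX libraries are described in the methods as separate clones and in the text as biological replicates, while the labels only number them, and the 1p libraries without and with DOX carry different replicate names. The other conditions had 1 library each, and a p-value here measures only the spread between these libraries. DOX induced XIST in every XIST clone with both conditions, and no vector library without DOX exists in these tables, so that an effect of DOX and an effect of XIST cannot be told apart.

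All values are FPKM, which scale the fragments of a gene for the length of its transcript and for the size of the library. FPKM do not give read counts and the depth of each library is unknown. XIST itself was at 3.38 FPKM in the 8p library without DOX and at 99.0 and 89.7 FPKM in those with DOX. In the NextSeq table it was at 4.17 and 22.0 FPKM without and with DOX in the 1p clone and at 3.75 and 67.6 FPKM in the 12q clone. In the HiSeq DOX libraries it was at 23.8 FPKM in the 1p XIST clone, 61.9 FPKM in the 12q clone and 0.0705 FPKM in the vector clone. The mesenchymal marker VIM was at 1644 to 2978 FPKM in the 10 libraries, and the blood cell marker PTPRC was listed at 0 in all of them. The 8 markers of other cell types summed to 0.220 to 1.22 FPKM in 9 libraries and to 4.74 FPKM in the NextSeq 12q library with DOX, where 2 of the 8, EPCAM and CDH1, had their highest level. The FPKM scale was not equal across the HiSeq libraries. The median gene was 0.16 higher on the log2 scale in the 8p library with No DOX than in the average HiSeq library and 0.22 lower in the vector library, against at most 0.024 in any NextSeq library, and changes are therefore also given relative to the median of all genes.

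Heat shock proteins are chaperones that bind unfolded protein. In the cytosol HSPA8 is the constitutive and HSPA1A the inducible HSP70 chaperone. DNAJB1 delivers clients and stimulates the HSP70 ATPase, while HSPH1 and BAG3 exchange the bound nucleotide. HSP90AA1 is the inducible cytosolic HSP90 and HSPB1 a small heat shock protein. HSPD1 and HSPE1 are the barrel and the lid of the mitochondrial chaperonin, are transcribed from a shared region in opposite directions, and are commonly read as reporters of unfolded protein in mitochondria. Tetracyclines such as DOX can inhibit the ribosomes of mitochondria. Many of these genes are targets of the heat shock factor HSF1, which binds inverted repeats of a short GAA unit.

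To show the letters that HSF1 could meet, the RefSeq promoter windows of GRCh38.p14, 250 bases before to 50 bases after each annotated start, were searched for GAANNTTC or TTCNNGAA, which read the same on both strands. All 9 genes matched by symbol, with 13 windows. The letters stood in 7 of the 13 windows and in windows of 6 of the 9 genes, against 13.5 % of all 35116 windows. A run of 3 units, GAANNTTCNNGAA or TTCNNGAANNTTC, which contains the shorter motif and whose letters are each other's reverse complement, stood in windows of HSPA8, HSP90AA1 and HSPD1, against 0.49 % of all windows. The matches upstream of a start are printed 5′ to 3′ on the strand of the gene, with the matching letters in capitals. The HSPD1 match lies before its inner start but downstream of its outer start, inside the annotated gene.
HSPA8, chr11:123062342-123062378, minus strand, 242 to 206 bases before the start: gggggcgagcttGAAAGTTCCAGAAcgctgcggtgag
HSPA8, chr11:123062167-123062203, minus strand, 67 to 31 bases before the start: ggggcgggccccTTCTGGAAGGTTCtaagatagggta
HSPA1A, chr6:31815425-31815456, plus strand, 118 to 87 bases before the start: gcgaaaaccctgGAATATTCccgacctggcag
DNAJB1, chr19:14518425-14518486, minus strand, 89 to 28 bases before the start: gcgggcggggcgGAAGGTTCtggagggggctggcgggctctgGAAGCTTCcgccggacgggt
HSP90AA1, chr14:102087093-102087144, minus strand, 100 to 49 bases before the start: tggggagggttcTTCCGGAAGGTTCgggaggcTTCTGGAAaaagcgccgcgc
HSPB1, chr7:76302479-76302510, plus strand, 194 to 163 bases before the start: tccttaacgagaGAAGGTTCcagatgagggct
HSPD1, chr2:197500062-197500090, minus strand, 250 to 222 bases before the inner of its annotated starts: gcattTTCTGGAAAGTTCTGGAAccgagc
A match is a description of the window and not a bound site, and the absence of these letters from the windows of HSPH1, BAG3 and HSPE1 says only that they are not in these bases.

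The mitochondrial pair is shown for its arrangement. In RefSeq, 104 bases separate the outer start of HSPD1 from that of HSPE1, printed here on the strand of HSPE1, at chr2:197500275-197500378 of GRCh38.p14, without a match to the letters above.
HSPD1 to HSPE1: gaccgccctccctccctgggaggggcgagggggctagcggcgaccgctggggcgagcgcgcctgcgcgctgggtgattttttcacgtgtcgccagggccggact

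**Figure D1:**
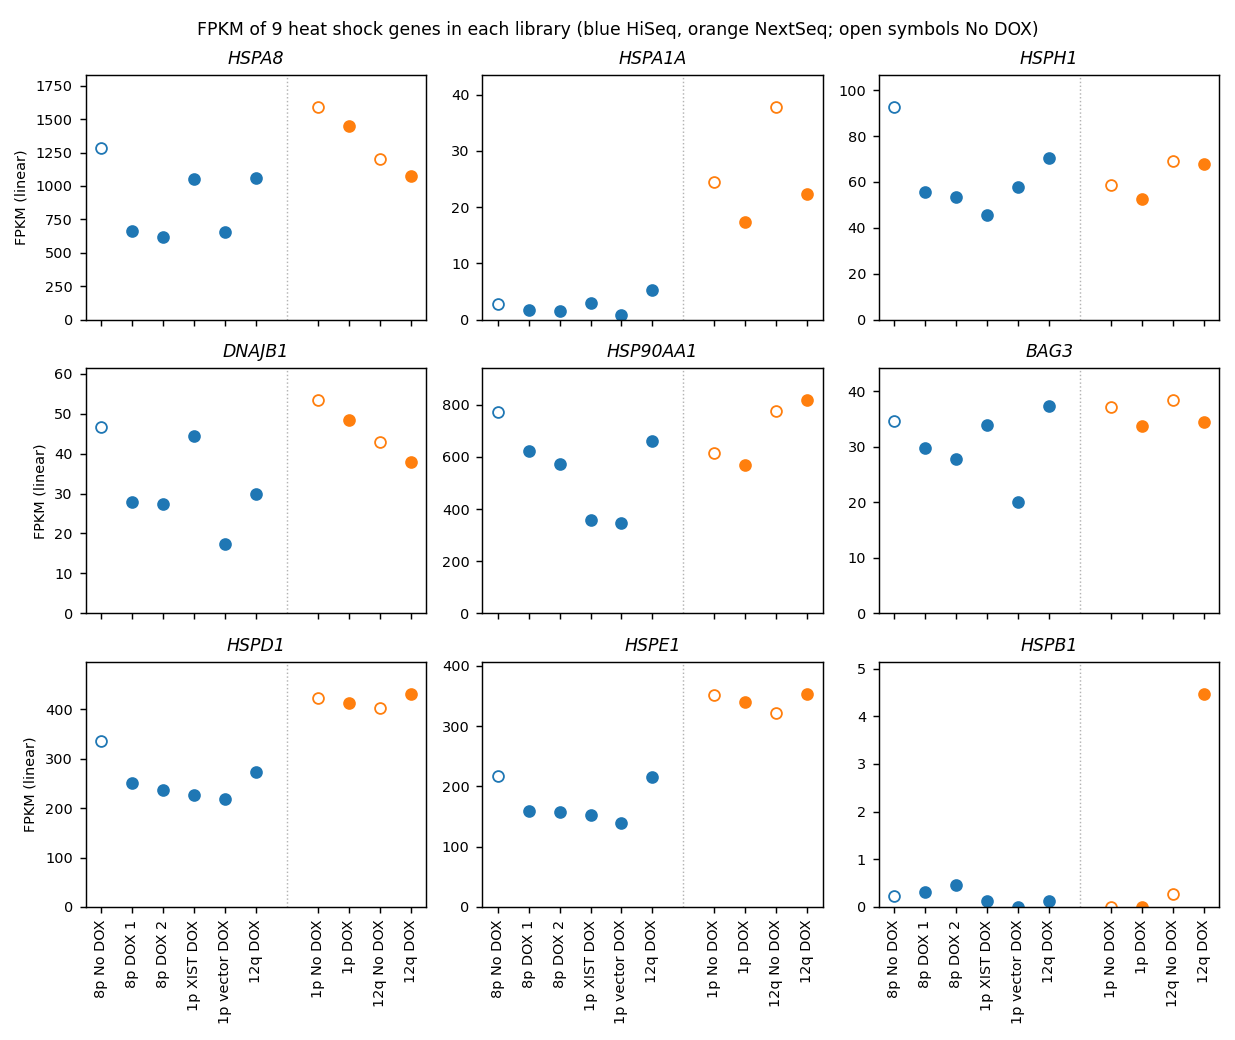
FPKM of each of the 9 heat shock genes on a linear axis from 0, with one point per library; the 6 HiSeq libraries are blue, the 4 NextSeq libraries orange, and open symbols are No DOX. Both 8p DOX points lie below the 8p No DOX point for 8 of the genes, HSPB1 being the exception, while the 1p and 12q points with and without DOX lie close together for all but HSPA1A and HSPB1.

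In the 8p clone all 5 genes of the HSP70 system were lower with DOX. Of these, 4 were called lower (limma adjusted p under 0.05), namely HSPA8, HSPA1A, HSPH1 and DNAJB1, where 19.8 % of all genes tested were called lower. HSPA8, the constitutive HSP70 (hg18, chr11:122433409-122438111), went from 1285 FPKM without DOX to 667 and 615 FPKM in the DOX libraries, changes of -48.1 and -52.1 %. The DOX replicates were much closer to each other than to the library with No DOX. HSPA8 fell by 1.00 on the log2(FPKM + 1) scale (SE 0.0998, limma adjusted p = 0.0162), the largest change among the 8 of the 9 genes that were tested. The bulk values cannot tell fewer cells with these transcripts from less RNA per cell.

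The HSP70 cochaperones HSPH1 (hg18, chr13:30608762-30634117) and DNAJB1 (hg18, chr19:14486581-14490201) followed at a similar size. HSPH1 went from 92.9 FPKM without DOX to 55.6 and 53.6 FPKM in the DOX libraries. It fell by 0.76 (SE 0.0749, limma adjusted p = 0.0162). DNAJB1 went from 46.7 FPKM without DOX to 28.0 and 27.4 FPKM in the DOX libraries, and fell by 0.73 (SE 0.0714, limma adjusted p = 0.0162). In both genes the DOX libraries differed from No DOX by nearly the same share, with changes of -40.1 and -42.3 % for HSPH1 and -40.1 and -41.2 % for DNAJB1. BAG3 (hg18, chr10:121400871-121427319), the other nucleotide exchange factor, went from 34.5 FPKM without DOX to 29.7 and 27.8 FPKM in the DOX libraries. BAG3 was lower in both DOX libraries, but its log2 change of -0.26 (SE 0.0804) missed the threshold (limma adjusted p = 0.0783). With the filter set at a mean of at least 5 FPKM it was called lower.

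HSPA1A (hg18, chr6:31891269-31893698) was low in the HiSeq table, at 2.84 FPKM in the 8p library without DOX and at 1.79 and 1.57 FPKM in those with DOX. It fell by 0.52 (SE 0.0883, limma adjusted p = 0.0251), and the pseudocount of 1 understates the change of so low a gene. HSPA1A and its neighbour HSPA1B (hg18, chr6:31903490-31906010) encode nearly the same sequence, so the division of reads between them is uncertain. HSPA1A took 18.3 to 29.7 % of their summed FPKM in the HiSeq libraries and 70.8 to 80.4 % in the NextSeq libraries. The sum is the safer quantity, and it went from 15.5 FPKM without DOX to 7.20 and 6.64 FPKM in the DOX libraries, a mean change of -55.3 %.

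The inducible HSP90 gene HSP90AA1 (hg18, chr14:101616827-101675839) went from 771 FPKM without DOX to 621 and 572 FPKM in the DOX libraries. Both DOX libraries were lower (-19.4 and -25.7 %), and the log2 change of -0.37 (SE 0.0968) was just outside the threshold (limma adjusted p = 0.0542). Under some of the other settings described at the end it was called lower, so that the call depends on the processing.

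The genes of the mitochondrial chaperonin were lower with DOX in the 8p clone as well. HSPD1, the barrel subunit (hg18, chr2:198059552-198073243), went from 335 FPKM without DOX to 251 and 237 FPKM in the DOX libraries, and fell by 0.46 (SE 0.0841, limma adjusted p = 0.0283). HSPE1, the lid (hg18, chr2:198072965-198076432), went from 217 FPKM without DOX to 159 and 157 FPKM in the DOX libraries, and fell by 0.45 (SE 0.0756, limma adjusted p = 0.0241). The mean changes of the partners in FPKM, -27.2 and -27.1 %, were nearly equal. The hg18 positions of the 2 genes overlap at their starts, and it is not stated whether fragments were assigned by strand, so a few reads may be shared between them.

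Together, 8 of the 9 genes could be tested in the 8p comparison and 6 of them were called lower, where 19.8 % of the 11357 genes tested were called lower and 11.3 % higher. The median change of the 8 genes was -0.49 on the log2 scale, against -0.058 over all genes. The No DOX condition had 1 library, which was assumed to vary like the DOX replicates, so that the spread rests on 1 residual degree of freedom. Without the filter on low genes 15 genes were called and none of the 8, with adjusted p from 0.116 to 0.181 in limma. By size alone, 3 of the 8 genes, HSPA8, HSPH1 and DNAJB1, were lower by more than 1.5-fold relative to the median of all genes, against 5.01 % of all genes.

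HSPB1, the small heat shock protein (hg18, chr7:75769810-75771550), was hardly detected and is given as listed. In the HiSeq table it was 0.223 FPKM in the 8p library with No DOX, 0.304 and 0.452 FPKM in the 8p DOX libraries, 0.119 FPKM in the 1p XIST clone, 0.117 FPKM in the 12q clone and 0 in the vector clone. In the NextSeq table it was listed at 0 in both 1p libraries, at 0.278 FPKM in the 12q library with No DOX and at 4.47 FPKM in the 12q library with DOX. A single library therefore carries the gene past the filter of 1 FPKM in that table, and no fold is given. In the same library the epithelial markers EPCAM and CDH1 were at 2.38 and 1.38 FPKM, against at most 0.0497 and 0.0163 FPKM in the other 9 libraries, and the part of this in the HSPB1 value was not tested.

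In the 1p and 12q clones HSPA1A had the largest difference with DOX among the 8 heat shock genes other than HSPB1. HSPA1A was 24.5 FPKM with No DOX and 17.4 FPKM with DOX in the 1p clone, and 37.9 and 22.4 FPKM in the 12q clone. Both DOX libraries were below their own No DOX library, and the 1p library with No DOX was above the 12q library with DOX only narrowly. The log2 change across the clones was -0.61 (SE 0.0884), with an unadjusted p of 0.00146 in limma and an adjusted p of 0.702. The sum of HSPA1A and HSPA1B went from 34.6 to 24.3 FPKM in 1p and from 47.1 to 29.9 FPKM in 12q. The 12q library with DOX also held the EPCAM and CDH1 signal, and the part of that signal in these values was not tested.

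The other cytosolic genes showed smaller differences in these clones. DNAJB1 was 53.4 and 48.5 FPKM without and with DOX in 1p and 42.8 and 37.8 FPKM in 12q. HSPA8 was 1595 and 1452 FPKM in 1p and 1199 and 1073 FPKM in 12q. For both genes the 2 clones differed more than the conditions did, since both 1p libraries were above both 12q libraries. BAG3 was 37.2 and 33.7 FPKM in 1p and 38.4 and 34.4 FPKM in 12q, with both libraries with No DOX above both libraries with DOX. The log2 changes were -0.16 for DNAJB1, -0.15 for HSPA8 and -0.14 for BAG3, each with a limma adjusted p of 0.702.

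HSPH1 was 58.8 and 52.6 FPKM without and with DOX in 1p and 69.0 and 68.0 FPKM in 12q. HSP90AA1 was 614 and 570 FPKM in 1p and 774 and 818 FPKM in 12q. Both genes were higher in the 12q clone than in the 1p clone whatever the treatment, and HSP90AA1 differed in opposite directions with DOX. Their changes across the clones were -0.089 and -0.015 with limma adjusted p of 0.778 and 0.968.

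The mitochondrial chaperonin genes differed by at most 10.1 % between conditions. HSPD1 was 423 and 413 FPKM without and with DOX in 1p and 404 and 432 FPKM in 12q. HSPE1 was 351 and 339 FPKM in 1p and 321 and 353 FPKM in 12q. Both genes were lower with DOX in 1p (-2.47 and -3.35 %) and higher with DOX in 12q (6.94 and 10.1 %). The 12q library with DOX is the one with the EPCAM and CDH1 signal, and the part of that signal in these values was not tested. The log2 changes across the clones were 0.030 for HSPD1 (SE 0.0629, limma adjusted p = 0.916) and 0.045 for HSPE1 (SE 0.0702, limma adjusted p = 0.891). Every step between neighbouring HSPD1 values in this table was smaller than the gap between the 8p DOX replicates, a gap measured in the other table. The 12q libraries without and with DOX held the lowest and the highest HSPD1 value. They differed by 0.097 on the log2 scale, more than that gap of 0.077.

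HSPB1 set aside, none of the 8 other genes was called in the NextSeq comparison (limma, with 1 of the 8 at an unadjusted p under 0.05), where 0.00877 % of the 11397 genes were called, that is 1 gene. By size, relative to the median of all genes, 0 of the 8 genes measured in 1p were lower by more than 1.5-fold, against 0.675 % of all genes. In 12q, where the library with DOX held EPCAM and CDH1, HSPA1A was the 1 gene of these 8 past it in that direction, against 1.64 % of all genes. The comparison had 1 pair per clone and 1 residual degree of freedom.

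**Figure D2:**
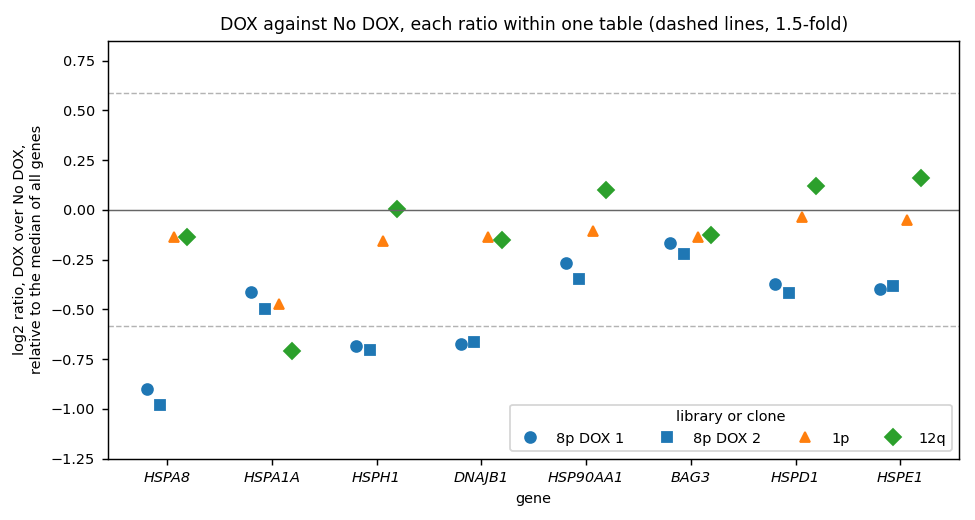
The log2 ratio of DOX over No DOX, on the log2(FPKM + 1) scale relative to the median of all genes, for 8 heat shock genes; circles and squares are the 8p DOX libraries against the 8p No DOX library (HiSeq), triangles 1p and diamonds 12q (NextSeq), and dashed lines mark 1.5-fold. HSPA8, HSPH1 and DNAJB1 lie below the lower line only for 8p, HSPA1A only for 12q, and the HSPD1 and HSPE1 diamonds lie above 0.

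Set side by side, 5 of the 8 genes measured in all comparisons, namely HSPA8, HSPA1A, HSPH1, DNAJB1 and BAG3, were lower with DOX in the 8p, 1p and 12q clones, against 19.9 % of 9797 genes. Relative to the median of all genes these were 4, against 16.1 %, because HSPH1 in 12q was then just above the median. These 5 are the genes of the HSP70 system, and the remaining 3, HSP90AA1, HSPD1 and HSPE1, were lower in 8p and 1p and higher in 12q. HSPA1A had mean FPKM changes of -40.7 % in 8p, -29.2 % in 1p and -41.0 % in 12q, and the sum of HSPA1A and HSPA1B changed by -55.3, -29.7 and -36.6 %. The corresponding changes of HSPA8 were -50.1, -8.91 and -10.5 %. Those of DNAJB1 were -40.6, -9.23 and -11.7 %, and those of BAG3 -16.7, -9.34 and -10.2 %. Whether the clones differ in these changes was not tested. The 8p values come from a table normalized separately from that of 1p and 12q, and these clones had a single pair of libraries each.

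The 8p values could also be set beside the other HiSeq libraries that had the same DOX treatment. HSPA8 was 1052 FPKM in the 1p XIST clone, 654 FPKM in the vector clone and 1059 FPKM in the 12q clone, so that the 8p DOX libraries and the vector clone were low together and the 8p library with No DOX was above all of them. In limma the 2 8p DOX libraries were below the other 3 by 0.49 (log2 change -0.49, SE 0.236, adjusted p = 0.255), or -0.68 relative to the median of all genes. HSPA1A was 2.93, 0.840 and 5.32 FPKM in the 1p XIST, vector and 12q clones, and the 8p DOX libraries lay inside this range (log2 change -0.42, limma adjusted p = 0.626). This value rested on single libraries, at -0.0047 without the 12q clone and -0.89 without the vector clone.

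HSPH1 was 45.7, 57.8 and 70.6 FPKM in the 1p XIST, vector and 12q clones, and again the 8p DOX libraries, at 53.6 and 55.6 FPKM, were among them. DNAJB1 was 44.4, 17.4 and 29.9 FPKM in the same order. The DNAJB1 level of the 1p XIST clone was near that of the 8p library with No DOX, although the clone had been treated with DOX. BAG3 was 33.9, 20.0 and 37.3 FPKM, lowest in the vector clone.

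HSP90AA1 was 358, 346 and 662 FPKM in the 1p XIST, vector and 12q clones. Both 1p lines were thus well below the 8p DOX libraries, which were close to 12q. The log2 change of 8p against the others was 0.46 (limma adjusted p = 0.378), and 0.26 relative to the median of all genes. Without the 12q library the change was 0.76 (limma adjusted p = 0.0401), and HSP90AA1 was then the 1 gene of the 8 called. HSPD1 was 226, 218 and 274 FPKM and HSPE1 152, 139 and 215 FPKM, and the log2 changes of 8p against the others were 0.034 (limma adjusted p = 0.911) and -0.066 (limma adjusted p = 0.870). For HSPD1 the 1p XIST clone differed from 8p replicate 2 and from the vector clone by less than the gap between the 8p replicates. For HSPE1 the 12q clone and the 8p library with No DOX differed by less than that gap.

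None of the 8 genes was called between the 8p DOX libraries and the other DOX clones (limma, 0 of 8 at the adjusted and 0 of 8 at the unadjusted threshold), where 1.41 % of the 11352 genes were called. The 8p library with No DOX was the highest of the 6 HiSeq libraries in 6 of the 8 genes, against 35.1 % of all genes, and in 4 of the 8 against 15.6 % after median scaling. These were HSPA8, HSPH1, DNAJB1, HSP90AA1, HSPD1 and HSPE1 before scaling. The vector clone was the lowest in 6 of the 8 genes, against 42.6 % of all genes, and in 3 of the 8 against 20.6 % after median scaling.

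**Figure D3:**
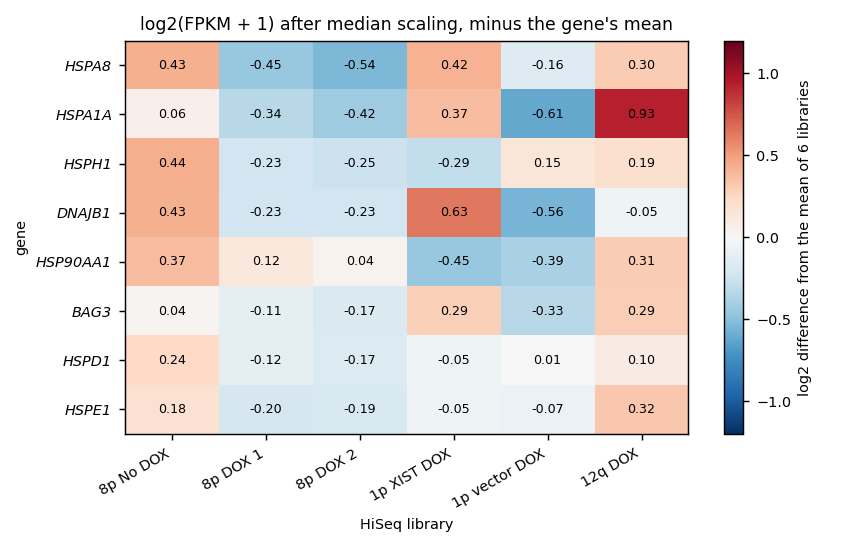
Heat map of 8 heat shock genes (rows) in the 6 HiSeq libraries (columns), as log2(FPKM + 1) after median scaling, minus the mean of the gene over the libraries; red is above and blue below the mean. The 8p No DOX column is above the mean in all 8 rows and both 8p DOX columns are below it except for HSP90AA1, while the 1p XIST and vector columns have opposite signs for HSPA8, HSPA1A, HSPH1, DNAJB1, BAG3 and, close to 0, HSPD1.

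Among the HiSeq DOX libraries, the 1p XIST clone and the vector clone are both labelled as 1p. With 1 library each, the values are given without a test. Relative to the median of all genes, DNAJB1 was higher in the XIST clone by 1.21 on the log2 scale, HSPA1A by 1.00, BAG3 by 0.64 and HSPA8 by 0.59. These 4 of the 8 genes were higher by more than 1.5-fold, against 9.74 % of all genes, and they are HSP70 system genes. HSPA8 was only just past that line of 0.585. The line was passed by 3 genes with a pseudocount of 0.1 or after median scaling, and by 2 at a mean of at least 5 FPKM. HSPA1A was at 0.840 FPKM in the vector library. The summed HSPA1A and HSPA1B level was 10.3 FPKM in the XIST clone and 3.51 FPKM in the vector clone. HSPH1 was lower in the XIST clone, at -0.42 relative to the median of all genes, and the 203 genes measured on its chromosome, 13, had a median of -0.53 on the same scale. The part of this difference across chromosome 13 in the HSPH1 value was not tested. HSPD1, HSPE1 and HSP90AA1 were within 9.26 % of the vector clone in FPKM.

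The wider chaperone network was described with lists of other genes. Of 34 cytosolic chaperones and cochaperones, 30 were measured in the 8p comparison, and 16 were called lower and 1 higher with DOX, with a median of -0.37, beside 19.8 and 11.3 % of all genes. The largest changes were those of HSPA1B, the HSPA1A copy (-1.13, adjusted p = 0.0158), DNAJA1, an HSP40 cochaperone (-0.82, adjusted p = 0.0162), and HSPB11 (-0.77, adjusted p = 0.0218), all by limma. HSPB11 is also a subunit of the intraflagellar transport complex. The 1 gene called higher, named after its values were seen, was DNAJB4, another HSP40 cochaperone (0.38, limma adjusted p = 0.0322). Of the 14 genes of the TRiC chaperonin, which folds actin and tubulin, and of prefoldin, which hands it clients, 6 were called lower and 1 higher, with a median of -0.27. PFDN1 had the largest change of these (-0.53, limma adjusted p = 0.0189).

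The mitochondrial genes outside the chaperonin were described in the same way. Of 19 other mitochondrial chaperones, import motor subunits and proteases, 3 were called lower and 0 higher (limma, with 7 at an unadjusted p under 0.05), with a median of -0.16, beside the 19.8 and 11.3 % of all genes called. This count does not stand apart from the background. The 3 were TIMM17A, a subunit of the inner membrane translocase (-0.48, adjusted p = 0.0210), GRPEL1, the exchange factor of mitochondrial HSP70 (-0.37, adjusted p = 0.0295), and HSPA9, that HSP70 itself (-0.33, adjusted p = 0.0405), by limma. HSPA9 went from 135 FPKM without DOX to 108 and 105 FPKM in the DOX libraries. The protease LONP1, often read beside HSPD1, was at 41.3 FPKM without DOX and at 40.8 and 41.9 FPKM in the DOX libraries.

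Of 6 transcription factors linked to mitochondrial stress, 3 were called lower and 1 higher with DOX in the 8p comparison, again beside 19.8 and 11.3 % of all genes. ATF5 went from 12.0 FPKM without DOX to 3.64 and 3.79 FPKM in the DOX libraries (-1.46, limma adjusted p = 0.0143). DDIT3, the stress factor also known as CHOP, went from 6.36 FPKM without DOX to 14.5 and 16.0 FPKM in the DOX libraries (1.14, limma adjusted p = 0.0158). TFAM, which packages mitochondrial DNA, fell by 0.71 (limma adjusted p = 0.0162). ATF5 and DDIT3 thus moved apart in 8p, while ATF4, which acts upstream of both, was at 200 FPKM without DOX and at 189 and 189 FPKM in the DOX libraries. In the 1p XIST, vector and 12q HiSeq libraries ATF5 was 17.1, 3.94 and 12.0 FPKM and DDIT3 4.93, 7.59 and 10.9 FPKM. Without and with DOX in NextSeq, ATF5 was 16.0 and 16.2 FPKM in 1p and 9.14 and 7.79 FPKM in 12q. DDIT3 was 11.5 and 10.2 FPKM in 1p and 11.0 and 18.4 FPKM in 12q there. That 12q library with DOX also held the EPCAM and CDH1 signal, and DDIT3 lies on chromosome 12, which carries XIST in the 12q clone. The part of either in the DDIT3 value was not tested.

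None of the heat shock factors was called lower. Of 6 factors and regulators 5 were measured, 0 were called lower and 2 higher (limma, with 2 at an unadjusted p under 0.05), with a median of 0.093. The called genes were TXNIP, an inhibitor of thioredoxin that is not a heat shock factor (0.71, limma adjusted p = 0.0299), and HSF4 (0.54, limma adjusted p = 0.0392). HSF1 was at 29.3 FPKM without DOX and at 29.3 and 29.9 FPKM in the DOX libraries. It lies on chromosome 8, which carries the XIST transgene in this clone, and the activity of the factor was not measured. Of the 15 chaperones of the endoplasmic reticulum, which respond to another stress pathway and served for comparison, 4 were called lower and 0 higher, against 19.8 and 11.3 % of all genes (limma, with 6 at an unadjusted p under 0.05), with a median of -0.057, close to the -0.058 of all genes. None of these list genes was called in the NextSeq comparison or between the 8p DOX libraries and the other DOX clones (limma), where between 0 and 4 and between 1 and 7 genes of a list, respectively, had an unadjusted p under 0.05.

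**Figure D4:**
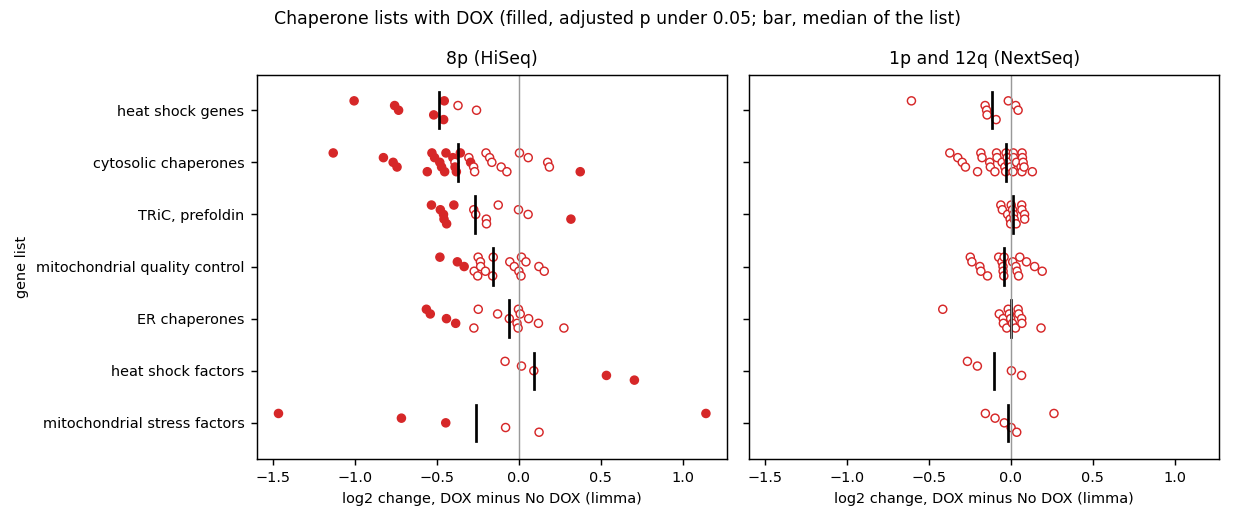
The log2 change with DOX in limma for each gene (circle) of 8 heat shock genes (HSPB1 left out) and of the lists of other chaperone and stress genes (rows), in the 8p comparison (left) and the 1p and 12q comparison (right); filled circles have an adjusted p under 0.05 and bars are list medians. The medians of the heat shock genes (-0.49) and of the cytosolic chaperones (-0.37) lie left of 0 for 8p, while no circle is filled on the right.

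Genes with a like pattern were found by the root mean square difference of log2(FPKM + 1), centred within each table, over the 10 libraries, among 6904 genes of at least 5 FPKM on average in both tables. The nearest genes to HSPD1 were GTF2A2 at 0.0407, SET at 0.0437 and HMGN2 at 0.0446. Its partner HSPE1 was at 0.0818 and ranked 119 of the genes nearest to HSPD1, and HSPD1 ranked 38 for HSPE1. The nearest genes to HSPE1 were TYW3 at 0.0532, PTGES3, an HSP90 cochaperone, at 0.0550, and LSM3 at 0.0573. HSPA1A was too low for this measure in the HiSeq table, and for DNAJB1 the nearest were TADA2A at 0.0932, SF1 at 0.104 and RAB35 at 0.105. HSPA8 was the nearest to DNAJB1 of the other heat shock genes, at 0.220 and rank 457. The 10 libraries share tables and scaling, and the measure is a description.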

How the data were processed

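The authors sequenced polyA-selected, strand-specific libraries (50 bp paired ends for HiSeq), aligned them to hg18 with TopHat and Bowtie and deposited Cufflinks FPKM in 2 separately processed tables. Versions and the annotation are not given in the sources used here. Lines with a repeated symbol (739 in the HiSeq and 882 in the NextSeq table) and symbols changed into dates were left out, and values were compared only within a table. The ChIP-seq data are not analysed here.

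Limma 3.58.1 in R 4.3.3 (lmFit, eBayes with trend, Benjamini-Hochberg adjustment over all genes, threshold 0.05) was run on log2(FPKM + 1) for genes with a mean of at least 1 FPKM. The NextSeq comparison had clone as a block (1 residual degree of freedom), the comparison of 8p with the other DOX clones 3, and the 8p comparison, fitted on 6 libraries with one mean per group, 1. Folds on this scale understate changes of low genes. Ratios without replicates were read against 1.5-fold relative to the median gene, with no test. Percent changes used FPKM without a pseudocount. The fits were also run on simulated data, with equal noise in every library, no differences between clones, and changes larger than that of HSPA8 in 8p. That simulation takes for granted that the lone No DOX library varies like the others and cannot test it. The genes and lists were chosen with earlier results of these data known. Of each list, up to 3 called genes with the largest change in a comparison were named, and others (HSPA1B, DNAJB4, LONP1, ATF4, HSF1) are named for context. For likeness, HSPA1A (or DNAJB1 if HSPA1A was below 5 FPKM), HSPD1 and HSPE1 were used with the 3 nearest genes each. Other steps used Python 3.11.15, numpy 2.4.6, pandas 2.3.3 and matplotlib 3.10.9. Sequences are from RefSeq.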

Additional observations from a re-analysis of the deposited data

Results flagged for a closer look

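The change with DOX had opposite signs in the 8p and 12q clones for 3 of the heat shock genes. On the log2(FPKM + 1) scale, HSP90AA1 was -0.37 in 8p and 0.079 in 12q, a difference of -0.45. HSPE1 was -0.45 in 8p and 0.14 in 12q, a difference of -0.59. HSPD1 was -0.46 in 8p and 0.097 in 12q, a difference of -0.55. Both 8p DOX libraries were below the 8p library with No DOX in each gene, and the 12q clone had 1 library per condition. Its library with DOX also held the epithelial markers EPCAM and CDH1 at 2.38 and 1.38 FPKM, and their part in these values was not tested. The differences were not tested, because the clones are in tables that were normalized separately.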

How the results depend on the processing

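In the 8p comparison 40 of 40 values of the 8 heat shock genes were below 0 under the 5 alternatives that can change them (a pseudocount of 0.1, median scaling, quantile normalization and leaving out either DOX replicate). All 5 kept the same single No DOX library and cannot test that baseline. Leaving out a replicate could not change a sign, since both DOX libraries were below that library in all 8 genes. With the 3 other DOX libraries in place of the No DOX library, which compares clones and not DOX, HSP90AA1 was 0.46 and HSPD1 0.034. HSP90AA1, not called as deposited, was called lower at a mean of at least 5 FPKM, after quantile normalization and with eBayes without trend. BAG3 was called lower only at a mean of at least 5 FPKM, a filter that HSPA1A did not pass. The genes called went from 3537 to 15 and the heat shock genes called from 6 to 0 without a filter on low genes, for which the cause was not tested. The calls were 1286 higher and 2251 lower as deposited, 1785 and 1706 after median scaling, and 1558 and 1585 after quantile normalization. In the NextSeq comparison the genes called went from 1 to 0 with no filter, with no clone block or with the 8p libraries added, and to 2 with eBayes without trend. There HSP90AA1 (-0.015) was 0.0081 after median scaling, 0.022 after quantile normalization and 0.079 without the 1p pair. HSPE1 and HSPD1 were -0.15 and -0.16 with the 8p libraries added, and -0.049 and -0.036 without the 12q pair. Between 8p and the other DOX clones 160 genes were called, 95 at a mean of at least 5 FPKM, 587 and 2 with the 8p library with No DOX added to the 8p or to the other libraries, and between 5 and 700 when leaving out 1 library (5 without 8p replicate 2, 11 without 8p replicate 1, 21 without the 1p XIST, 254 without the vector and 700 without the 12q library). Of the heat shock genes 0 to 1 were called. HSPD1 (0.034) was -0.16 after median scaling, -0.14 after quantile normalization, -0.089 with the 8p library with No DOX among the others, and -0.0047, -0.0041 and -0.029 without 8p replicate 1, the 1p XIST or the vector library. With that No DOX library among the 8p libraries, HSPH1 was 0.19, DNAJB1 0.20, HSPE1 0.085 and BAG3 0.055. Without the 12q library HSPH1 was 0.085, HSPE1 0.12 and BAG3 0.14. Without the 1p XIST library DNAJB1 was 0.27 and BAG3 0.069, and without 8p replicate 2 BAG3 was 0.015. Over the fits that left out 1 library HSPA8 ran from -0.72 to -0.37, HSPA1A from -0.89 to -0.0047, HSP90AA1 from 0.29 to 0.76, HSPH1 from -0.22 to 0.085, DNAJB1 from -0.38 to 0.27, HSPE1 from -0.19 to 0.12, HSPD1 from -0.029 to 0.13 and BAG3 from -0.30 to 0.14, and a lone 8p library was assumed to vary like the others. Past 1.5-fold in either direction were 1.10 % of genes in 1p and 2.81 % in 12q. These shares were 2.07 and 4.95 % with a pseudocount of 0.1, and 0.631 and 1.83 % at a mean of at least 5 FPKM. At that filter 1 in place of 2 heat shock genes passed 1.5-fold in 12q (HSPB1 being lost). Between the 1p XIST and vector clones it was 2 in place of 4 at that filter. It was 3 there with a pseudocount of 0.1 or after median scaling.

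Depth is unknown, so low values such as those of HSPA1A and HSPB1 carry no error beyond the libraries shown. The 8p comparison without one of its DOX replicates, and the NextSeq comparison with a single pair, give values with no test. No paired analysis by replicate name was possible because no 2 groups have as many as 2 replicate names in common, and the NextSeq pairs were instead blocked by clone.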
